A study of Arabidopsis thaliana with 10 samples.

Results

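The genes described here are SCL23 (AT5G41920), JKD (AT5G03150), AT5G60470 and AT1G14580, which were grouped as partners of SHORT-ROOT (SHR). Each was chosen by its probe set, a set of short oligonucleotides that reads RNA of a gene. The platform annotation pairs each of these probe sets with that locus alone. These are 4 of 22746 tested probe sets, and each of the 4 loci had 1 probe set. The grouping took no account of measured signals, but it was made with earlier results of these data known. All plants were Arabidopsis thaliana shr-2 mutants with the transgene pSHR:SHR-GR, in which the SHR promoter drives SHR joined to the glucocorticoid receptor (GR). Whole shoots were collected at 10 days after germination on ATH1 arrays. The control was 0 hr, and the other groups had received 10 µM dexamethasone (DEX) for 3, 6, 12 or 24 hr, with 2 biological replicates in each of the 5 groups. DEX was first given at day 10, except for the 24 hr group, where it was given at day 9, and plants grew at 22 °C with 16 h of light. The controls carried the mutation and the transgene as well, and mock-treated shoots at the later times were not analysed here. DEX, time of day, handling and age therefore cannot be told apart.

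SHR is a GRAS-family transcription factor made in the vascular cylinder of the root that moves outward into the next cell layer. There it acts with SCARECROW (SCR), another GRAS protein, to set the identity and division of the endodermis. SCL23 is a close relative of SCR, and in leaves SHR, SCR and SCL23 act in the bundle sheath, the cell layer around the veins. JKD (JACKDAW) is a zinc-finger protein of the INDETERMINATE DOMAIN (IDD) family that binds SHR and SCR in the root and restricts how far SHR moves. The fusion with GR is held in the cytoplasm until DEX is given. The reference names AT5G60470 and AT1G14580 by locus only, so they are described by locus, grouped with the IDD genes. The question was whether the levels of the 4 transcripts differed over the DEX course.

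Median signals per array lay between 181.8 and 191.7, and the correlation of replicates across probe sets lay between 0.9858 and 0.9909. SHR and SCR themselves were not analysed here, because no probe set was paired with them in the annotation used. Listed genes are called measured here where that annotation paired a probe set with them alone. Of 22746 tested probe sets, 8730 were not listed in it and 503 were paired with several genes. A gene that is not measured may therefore still be on the array. RCA, the Rubisco activase of leaf chloroplasts and the 1 measured of 14 listed leaf markers, had signals of 18800 to 25500. PYK10, a beta-glucosidase abundant in roots and also in young seedlings, had 8260 to 10900, while the other 4 measured root markers (AT5G17820, AT3G01190, EXPA7 and EXPA18) summed to 72 to 164 per array. That sum ranged over 134 to 164 in the controls, and in the 3, 6, 12 and 24 hr groups over 72 to 87.4, 72.1 to 97.8, 110 to 118 and 144 to 164. Of these, EXPA18, an expansin gene of root hairs, fell at 6 hr, with a log2 fold change of -1.52 (limma adjusted p = 0.00599), and no other measured marker passed against 0 hr at any time. By the F test over the DEX times EXPA18 (adjusted p = 0.0227) and AT5G17820 (adjusted p = 0.0492) passed. AT5G17820 had means of 27.7, 6.35, 44.8, 42.4 and 51.7 in time order, and EXPA18 had a mean of 20.4 at 6 hr. Signals ran from 4.94 to 51.9 for AT5G17820 and from 10 to 85.2 for EXPA18. Both thus reached below 44.8, the level under which a signal is called near background further on. SWEET11, a sucrose transporter of the phloem and the 1 measured of 13 listed vascular markers, had 9400 to 11600. RCA had 23000 to 25500 in the controls and 18800 to 19100 at 6 hr. The part of other tissues in the results below was not tested.

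AT1G14580 was the only member to pass the threshold in a test between times, and AT5G60470 came close to it, as given below. Its signal was 205.4 and 192.7 in the controls, 241.4 and 300.1 at 3 hr, 152.9 and 130 at 6 hr, 169.3 and 179.3 at 12 hr, and 105.8 and 172.4 at 24 hr. Both 3 hr arrays lay above all other arrays, and all arrays of 6, 12 and 24 hr lay below both controls. By limma's moderated F test over the 4 DEX times, AT1G14580 passed the threshold (adjusted p = 0.042, adjusted over all tested probe sets), as did 13.2% of the tested probe sets. That made 1 of 4 members, a count that the background share does not set apart. Shoots were measured whole, so fewer cells that express a gene and less RNA per cell cannot be told apart.

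AT1G14580 fell from 3 hr to 6 hr, from a mean signal of 271 ± 41.5 to 141 ± 16.2 (SD, n = 2 arrays each). On the scale of signal + 16 the log2 fold change was -0.86, with a 95% interval of -1.3 to -0.42. AT1G14580 was thus 1.82-fold lower on that scale (SE of the log2 fold change 0.2, limma adjusted p = 0.0215). From 3 hr to 24 hr it was lower by a log2 fold change of -0.91 (SE 0.2, 95% interval -1.35 to -0.47, limma adjusted p = 0.0153), to a mean of 139 ± 47.1 (SD, n = 2). The 12 hr mean of 174 ± 7.07 (SD, n = 2) was also below the 3 hr mean, with a log2 fold change of -0.58 (SE 0.2) that did not pass (limma adjusted p = 0.121). In order of level the times ran 3 hr, 0 hr, 12 hr, 6 hr and 24 hr. No neighbours in that order passed the threshold (adjusted p = 0.268, 0.769, 0.626 and 0.931 by limma). The differences that passed thus lay between the high 3 hr arrays and the low 6 and 24 hr arrays. Both 12 hr arrays also lay below the 3 hr arrays, with a 95% interval of -1.02 to -0.14 for that log2 fold change.

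Against 0 hr, AT1G14580 did not pass at any time. The log2 fold changes were 0.41 at 3 hr (95% interval -0.03 to 0.85), -0.45 at 6 hr (-0.89 to -0.01), -0.18 at 12 hr (-0.62 to 0.26) and -0.51 at 24 hr (-0.95 to -0.06), each with SE 0.2. The limma adjusted p values were 0.268, 0.203, 0.769 and 0.29. At 24 hr the 2 arrays were unlike each other, with replicate 1 lower by 1.63-fold, and the log2 fold change against 0 hr was -0.19 with replicate 1 left out and -0.82 with replicate 2 left out. The F test gave adjusted p between 0.00898 and 0.172 when 1 array was left out. It passed without 24 hr replicate 1 (0.0307) or 24 hr replicate 2 (0.00898), and it missed without any of the other 8, with 0.0824 and 0.0785 without control replicates 1 and 2, 0.0812 and 0.172 without 3 hr replicates 1 and 2, 0.075 and 0.0942 without 6 hr replicates 1 and 2, and 0.0801 and 0.0799 without 12 hr replicates 1 and 2. The fall from 3 to 6 hr lost its call without 3 hr replicate 2 (adjusted p = 0.133), 6 hr replicate 1 (0.0664) or 6 hr replicate 2 (0.13), and the difference between 3 and 24 hr lost it without 3 hr replicate 2 (adjusted p = 0.105) or 24 hr replicate 1 (0.096, log2 fold change -0.6).

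**Figure D1:**
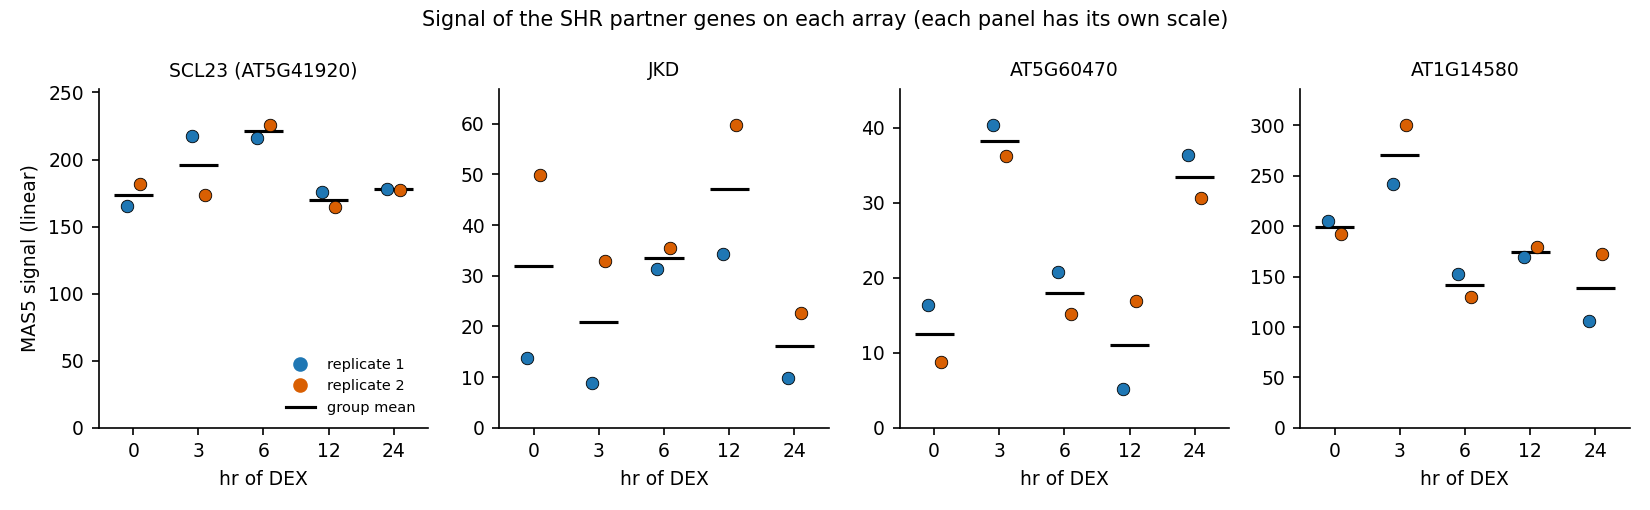
MAS5 signal (linear scale, vertical axis) of each gene on each of the 10 arrays against hr of DEX, with points for the replicates and a line for the mean of the 2 arrays in a group; each panel has its own scale. AT1G14580 is highest on the 3 hr arrays, at 241.4 and 300.1, and the replicates of JKD lie far apart at 0 hr, at 13.87 and 49.95.

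SCL23, the GRAS member, stayed within a narrow band. Its signal was 165.7 and 181.6 in the controls, 217.7 and 173.9 at 3 hr, 216.3 and 225.5 at 6 hr, 175.7 and 164.5 at 12 hr, and 177.8 and 177.6 at 24 hr. The 6 hr arrays were above both controls, whereas the arrays of the other times overlapped them. The mean was 174 ± 11.3 at 0 hr and 221 ± 6.51 at 6 hr (SD, n = 2 each), a log2 fold change of 0.32 (SE 0.14, 95% interval 0.01 to 0.63) that did not pass (limma adjusted p = 0.198).

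For SCL23 the other log2 fold changes against 0 hr were 0.15 at 3 hr, -0.03 at 12 hr and 0.03 at 24 hr, with 95% intervals of -0.16 to 0.46, -0.34 to 0.28 and -0.28 to 0.34. The F test over the DEX times did not pass either (adjusted p = 0.328). In order of level, 6 hr came before 3 hr, 24 hr, 0 hr and 12 hr. No neighbours passed the threshold (adjusted p = 0.539, 0.675, 0.952 and 0.969 by limma). At the precision of this probe set, a change of 1.42-fold at 3 hr or 1.41-fold at 6 hr would have been needed to pass, and 1.56-fold at 12 hr or 1.61-fold at 24 hr, where fewer probe sets passed. The 95% interval of the fold change was 0.792 to 1.22 at 12 hr and 0.825 to 1.27 at 24 hr.

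JKD, the IDD gene with a name in the reference, gave a low and scattered signal. Its signal was 13.87 and 49.95 in the controls, 8.813 and 32.85 at 3 hr, 31.4 and 35.53 at 6 hr, 34.38 and 59.69 at 12 hr, and 9.751 and 22.59 at 24 hr. The arrays of every DEX time overlapped the range of the controls. Its group means in time order were 31.9 ± 25.5, 20.8 ± 17, 33.5 ± 2.92, 47 ± 17.9 and 16.2 ± 9.08 (SD, n = 2 each).

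The mean signal of JKD over the 10 arrays, 29.9, lay below 44.8, the 30th percentile of all tested probe sets, under which a signal is called near background here. The log2 fold changes against 0 hr were -0.35, 0.15, 0.48 and -0.49 at 3, 6, 12 and 24 hr, each with SE 0.43, and none passed (limma adjusted p = 0.708, 0.877, 0.692 and 0.665). Their 95% intervals reached from -1.43 at 24 hr to 1.42 at 12 hr. A change of 2.91-fold at 3 hr and of 4.27-fold at 24 hr would have been needed to pass at this spread, so smaller differences in JKD were not detectable. These folds are on the scale of signal + 16 and hold for the spread measured. There a fall from the control level to no signal is close to the 2.91-fold needed at 3 hr and the 2.85-fold at 6 hr. It is smaller than the 3.88-fold needed at 12 hr and the 4.27-fold at 24 hr. A decrease of JKD from 0 hr thus had little room to pass at 3 and 6 hr. At 12 and 24 hr it could not have passed at this spread. In order of level the times ran 12 hr, 6 hr, 0 hr, 3 hr and 24 hr. Neighbours in that order did not pass the threshold (adjusted p = 0.828, 0.877, 0.708 and 0.896 by limma). Without control replicate 2, the array at 49.95, the value at 3 hr was 0.22 and that at 24 hr 0.08, and without control replicate 1 the value at 6 hr was -0.42 and that at 12 hr -0.09, so the sign of each JKD difference rested on which control array was kept. The 3 hr value was also above 0, at 0.14, without 3 hr replicate 1.

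AT5G60470 had a low signal on all arrays, higher at 3 and 24 hr than at the other times. Its signal was 16.39 and 8.742 in the controls, 40.34 and 36.25 at 3 hr, 20.72 and 15.2 at 6 hr, 5.216 and 16.97 at 12 hr, and 36.35 and 30.67 at 24 hr. The arrays of 3 and 24 hr lay above all arrays of the other times, while those of 6 and 12 hr overlapped the controls. All 10 signals were below 44.8 and thus near background, so the size of a change depends on the offset of 16 that was added before the logarithm. With this offset a fall from the control mean to no signal is smaller than the change needed to pass at any DEX time. A decrease of AT5G60470 from the controls could thus not have passed at the spread measured.

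The mean of AT5G60470 was 12.6 ± 5.41 at 0 hr and 38.3 ± 2.89 at 3 hr (SD, n = 2 each), a log2 fold change of 0.94 (SE 0.28, 95% interval 0.33 to 1.55) with limma adjusted p = 0.0649. At 24 hr it was 33.5 ± 4.01 (SD, n = 2), a log2 fold change of 0.8 (SE 0.28, adjusted p = 0.221), and the values at 6 and 12 hr were 0.26 (adjusted p = 0.639) and -0.1 (adjusted p = 0.929). The difference of 12 hr from 3 hr was -1.04 (SE 0.28, 95% interval -1.65 to -0.43, adjusted p = 0.0501), and the F test gave adjusted p = 0.065. With an offset of 64 in place of 16, the 3 hr value was 0.42 and passed (limma adjusted p = 0.0424), as did the F test (adjusted p = 0.0446) and the difference of 12 from 3 hr (-0.45, adjusted p = 0.0365), and with an offset of 1 none of these passed (adjusted p = 0.135, 0.123 and 0.0854). The difference of 12 from 3 hr also passed after quantile normalization (adjusted p = 0.0452) and with a common median (adjusted p = 0.0425). Ordered by level, the times ran 3 hr, 24 hr, 6 hr, 0 hr and 12 hr, with adjusted p between neighbours of 0.84, 0.295, 0.639 and 0.929 by limma.

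Against 0 hr, 0 of 4 members passed limma's test at 3, 6, 12 or 24 hr, with adjustment over all tested probe sets. The shares of all tested probe sets that passed were 8.22%, 9.36%, 1.6% and 0.958%, so a count of 0 among 4 is near the background at each time. At an unadjusted p below 0.05 the counts were 1, 2, 0 and 2 of 4, with AT5G60470 at 3 and 24 hr, AT1G14580 at 6 and 24 hr, and SCL23 at 6 hr. Of all tested probe sets, 22.3%, 23%, 13.2% and 13.8% were below that unadjusted p. The 2 arrays of a DEX time did not overlap the 2 controls for 2, 2, 1 and 2 of 4 members in the 3, 6, 12 and 24 hr groups. For all tested probe sets such a separation held for 49%, 53%, 45.7% and 42.6% in the same order of times, so the members were not set apart by it. The median log2 fold change of the 4 was 0.28, 0.21, -0.06 and -0.23 at the 4 times, beside -0.03, -0.05, -0.03 and -0.03 for all tested probe sets.

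Between DEX times, AT1G14580 was the 1 of 4 members that passed from 3 to 6 hr and from 3 to 24 hr, where 9.14% and 10.2% of all tested probe sets passed. In the other pairs of DEX times 0 of 4 passed by limma, beside 6.69% of all tested probe sets for 12 against 3 hr, 2.39% for 12 against 6 hr, 6.59% for 24 against 6 hr and 0.114% for 24 against 12 hr. At an unadjusted p below 0.05 these 4 pairs gave 2, 1, 0 and 2 members, beside 20%, 13.8%, 21% and 10.8% of all tested probe sets. For SCL23 the largest of these differences was -0.35 from 6 to 12 hr (SE 0.14, adjusted p = 0.294), and for JKD it was -0.97 from 12 to 24 hr (SE 0.43, adjusted p = 0.444). For AT5G60470 the difference of 24 from 12 hr was 0.9 (SE 0.28, adjusted p = 0.292).

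**Figure D2:**
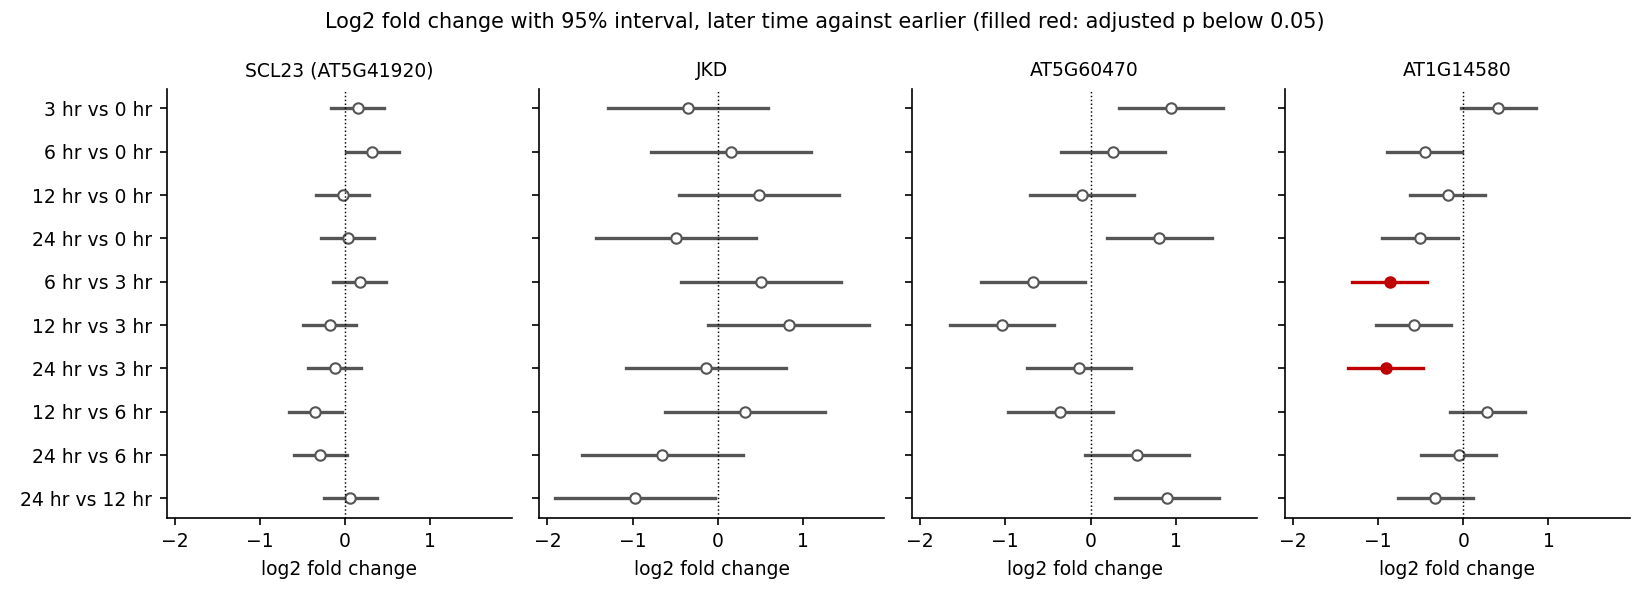
Log2 fold change of the later against the earlier time (horizontal axis) with its 95% interval for each gene and each of the 10 pairs of times, from the limma fit on log2(signal + 16); filled red points passed an adjusted p of 0.05. The passing values are those of AT1G14580 from 3 to 6 hr, at -0.86, and from 3 to 24 hr, at -0.91, and the intervals of JKD are the widest.

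The members differed in how closely their replicates matched. The residual SD within groups on the log2(signal + 16) scale was 0.11 for SCL23 and 0.23 for AT1G14580, whose mean signals of 188 and 185 both lay near the middle of all tested probe sets, at the 49.7th and 49.4th percentile. The 1000 probe sets nearest in mean signal had a median residual SD of 0.15 in both cases, so SCL23 varied less and AT1G14580 more than most at that level. JKD had a residual SD of 0.54 beside a median of 0.36 for its neighbours, and AT5G60470 had 0.25 beside 0.4. Replicates of JKD differed 3.6-fold at 0 hr and 3.73-fold at 3 hr but 1.13-fold at 6 hr, while those of SCL23 differed by at most 1.25-fold, at 3 hr. For AT5G60470 the ratio of replicates was highest at 12 hr, at 3.25, and lowest at 3 hr, at 1.11.

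**Figure D3:**
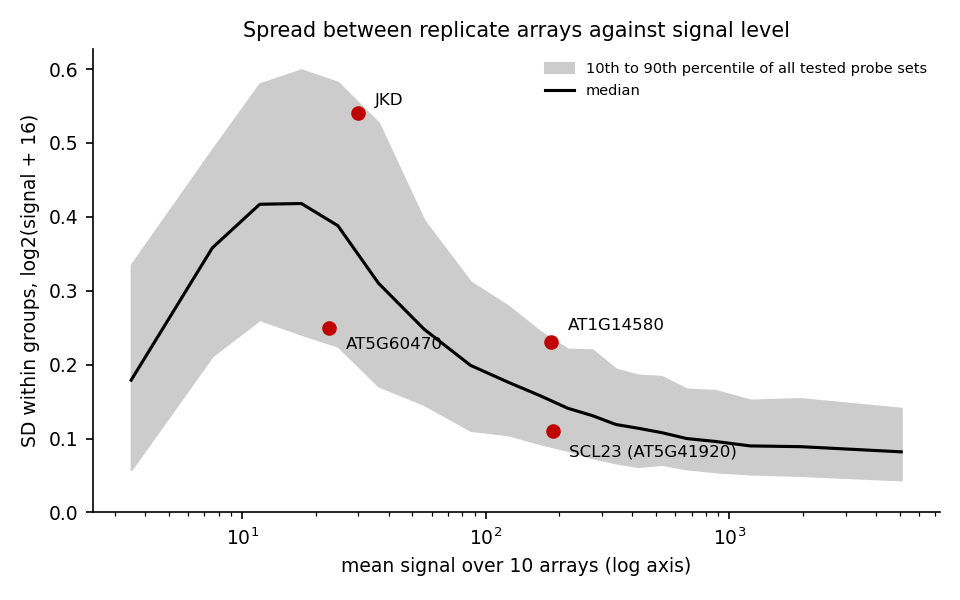
Residual SD between replicate arrays on the log2(signal + 16) scale (vertical axis) against mean signal over the 10 arrays (log axis); the line and the grey band are the median and the 10th to 90th percentile of all tested probe sets in 20 bins of mean signal, and the red points are the members. JKD, at 0.54, and AT1G14580, at 0.23, lie above the line, and SCL23, at 0.11, and AT5G60470, at 0.25, lie below it.

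The 4 profiles did not follow each other. Pearson correlations between members over the 10 arrays, given as a description, ran from -0.61 between JKD and AT5G60470 to 0.18 between AT5G60470 and AT1G14580, and SCL23 with AT1G14580 stood at -0.2. All 10 arrays enter each value, so the replicate scatter of JKD is part of it.

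The 3 probe sets most like each member were named by their correlation over the 10 arrays. Candidates were 8766 other probe sets with 1 gene and a mean above the 30th percentile. A like profile follows from that choice, and r was not set against a background, so both are given as a description. AT1G06000 was the closest to AT1G14580, with r = 0.981, and its mean signals were 1750, 2110, 1470, 1560 and 1430 at 0, 3, 6, 12 and 24 hr. AT1G77750 (r = 0.948) and AT4G36580 (r = 0.945) followed, the latter with means of 145, 178, 125, 129 and 112. All 3 were highest at 3 hr and lowest at 24 hr, as AT1G14580 was.

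For SCL23 the closest were AT2G38610 (r = 0.938), AT1G49650 (r = 0.925) and AT1G05380 (r = 0.923), each highest at 6 hr, with means there of 539, 635 and 506. For AT5G60470 they were AT1G27000 (r = 0.895), AT3G58520 (r = 0.894) and GSTU25 (r = 0.89), a glutathione transferase gene whose means were 39, 73.2, 45.9, 36 and 63.5. GSTU25 and AT5G60470 were thus both high at 3 and 24 hr, GSTU25 from a level just under 44.8 in the controls. For JKD they were AT5G18180 (r = 0.902), AT3G06450 (r = 0.894) and AT2G23330 (r = 0.889), the last with its highest mean, 110, at 12 hr and its lowest, 60, at 24 hr.

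**Figure D4:**
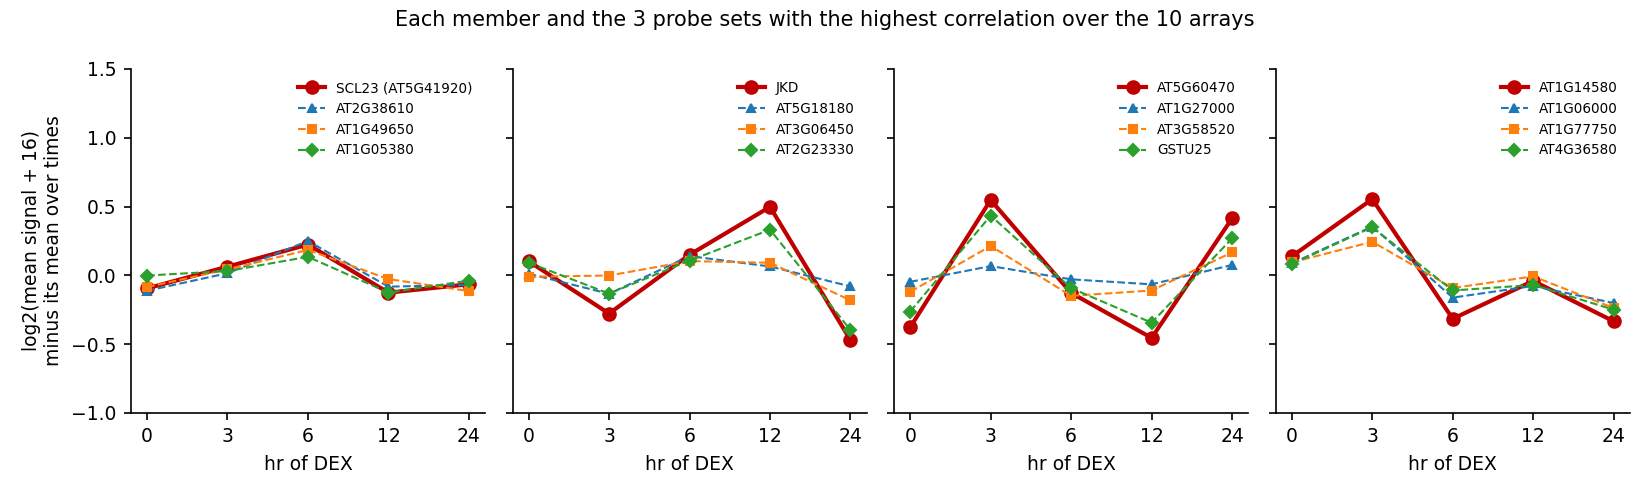
Group means of each member (red) and of the 3 probe sets most correlated with it, as log2(mean signal + 16) minus the mean over the 5 times (vertical axis), against hr of DEX. AT1G14580 and its 3 companions peak at 3 hr, and AT5G60470 and GSTU25 are high at 3 and 24 hr. The companions were chosen for this likeness.

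Of 16 loci listed as the IDD family, 5 were measured, 3 of them being JKD, AT5G60470 and AT1G14580. By limma 0 of 5 were higher and 0 lower at 3, 6, 12 and 24 hr, where 3.91%, 5.17%, 1.27% and 0.717% of all tested probe sets were higher and 4.31%, 4.19%, 0.33% and 0.242% lower. For AT5G60470 a decrease could not have passed at the spread measured, as its control signals were too low. For JKD, also low in the controls, a decrease had little room to pass at 3 and 6 hr and none at 12 and 24 hr at its spread. With a common median for all arrays, 63.1% of all the probe sets called at 3 hr were higher, against 47.6% as deposited. The other measured IDD genes were AT3G45260 and IDD16. AT3G45260 had means of 178 ± 55 at 0 hr, 226 ± 26.7 at 6 hr and 124 ± 9.95 at 24 hr (SD, n = 2 each), with log2 fold changes against 0 hr of 0.34 and -0.44 (SE 0.23), neither of which passed (limma adjusted p = 0.424 and 0.436). IDD16 had means of 64.9 ± 6.85 at 0 hr and 83.4 ± 9.67 at 3 hr (SD, n = 2 each), a log2 fold change of 0.3 (SE 0.21) that did not pass (adjusted p = 0.472 by limma). The median log2 fold change of the 5 was 0.3, 0.15, -0.1 and -0.44 at the 4 times.

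Of 33 loci listed as the GRAS family, 14 including SCL23 were measured, and 2 of them, AT3G46600 and AT5G59450, rose at 6 hr by limma while 0 fell, where 5.17% of all tested probe sets were higher and 4.19% lower. The list as a whole was not tested. AT3G46600, which the reference names by locus only, had signals of 217 and 265.5 in the controls, 198.9 and 210.3 at 3 hr, 652.2 and 623.6 at 6 hr, 403 and 383 at 12 hr, and 371.7 and 365.9 at 24 hr. Its 6, 12 and 24 hr arrays were all above both controls, and its log2 fold change was 1.35 at 6 hr (SE 0.11, limma adjusted p = 1.91e-05), 0.68 at 12 hr (adjusted p = 0.0114) and 0.59 at 24 hr (adjusted p = 0.0354). The call at 6 hr held in all 10 fits without 1 array, the one at 12 hr was lost in 3 of them and the one at 24 hr in 9. AT5G59450 had means of 153 ± 15.1 at 0 hr, 106 ± 9.87 at 3 hr and 235 ± 18.8 at 6 hr (SD, n = 2 each), and its log2 fold change of 0.57 at 6 hr (SE 0.15, limma adjusted p = 0.0413) was lost in 6 of the 10 fits.

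At 3 hr 0 of the 14 GRAS genes passed by limma, and at 12 and 24 hr 1 passed, which was AT3G46600, beside 8.22%, 1.6% and 0.958% of all tested probe sets at these times. LAS, a GRAS regulator of axillary meristems, had signals between 3.17 and 51.2, and SCL21 had 184 to 269, and neither passed at any time. The median log2 fold change of the 14 was -0.22, 0.09, -0.03 and -0.05 at the 4 times. Of a list of 20 SHR pathway genes, 6 were measured, namely the 4 members, AT3G45260 and PHV, a homeodomain leucine-zipper gene of leaf polarity, and 0 of 6 passed against 0 hr at any time by limma, where 0.958% to 9.36% of all tested probe sets did. PHV had signals of 514 to 778 and log2 fold changes of 0.16 to 0.27.

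**Figure D5:**
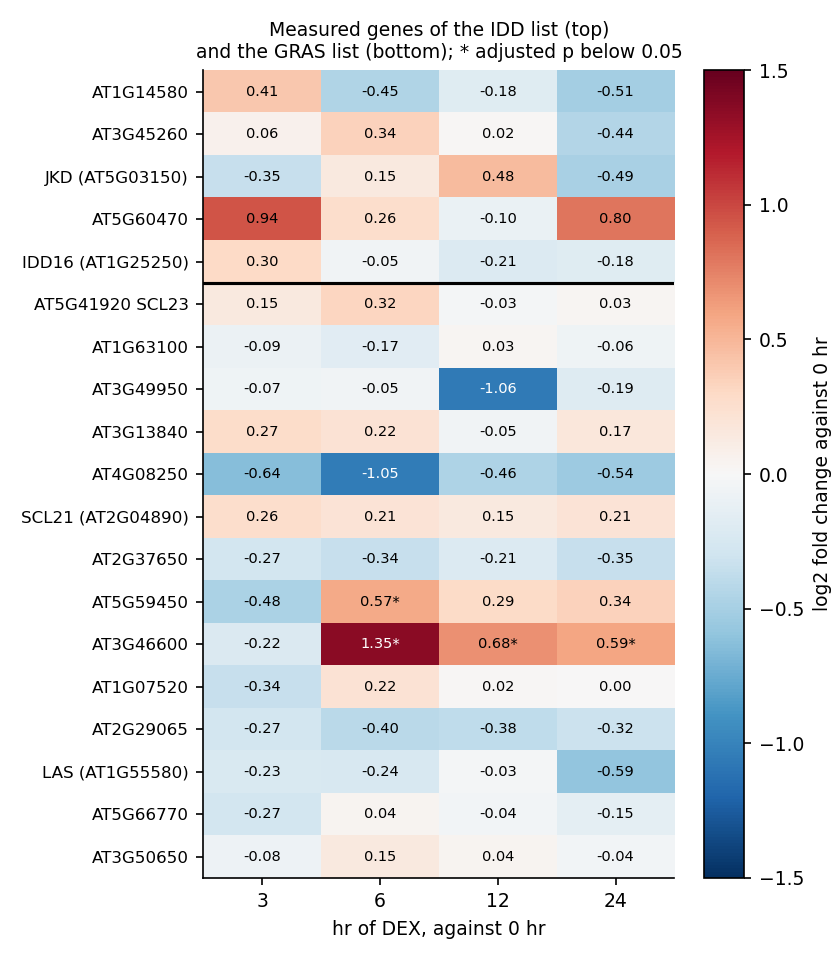
Log2 fold change against 0 hr (colour and printed value) at 3, 6, 12 and 24 hr for the 5 measured IDD genes (above the line) and the 14 measured GRAS genes (below it), with a star where the limma adjusted p was below 0.05. The starred values are those of AT3G46600 at 6, 12 and 24 hr and of AT5G59450 at 6 hr.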

How the data were processed

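Gene expression was measured on ATH1 arrays in whole shoots, with 2 arrays in each of 5 groups. The deposited values are linear MAS5 signal intensity; the submitters' processing notes name Affymetrix Expression Console, version 1.1. Background correction and scaling target are not given in the sources used here. Every array had the same 2% trimmed mean of 500, so scaling preceded deposition. Gene names come from the platform annotation, updated through the TAIR10.1 gene table.

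Of 22810 probe sets, 64 controls were set aside. Values were fitted as log2(signal + 16) with limma 3.58.1 in R 4.3.3, with 1 mean per group and variances moderated along an intensity trend. No normalization was added. Residual degrees of freedom were 5, and the prior's 5.86. Tests were two-sided with Benjamini-Hochberg adjustment over 22746 probe sets and a threshold of 0.05. Printed SE and intervals come from this fit, and SD from the 2 arrays. The small number of arrays limits precision, and an exact permutation test of 2 against 2 could not reach the threshold. On simulated data with 200 changed probe sets in 1 DEX group, drawn above the 30th percentile, 90.8% of log2 changes of 1 and 100% of changes of 2 were recovered, with 6.08% wrong calls.

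The members, lists and tests were chosen with earlier results of these data known. Named genes were the members, every gene of the IDD, GRAS and SHR pathway lists that passed against 0 hr at any time, and the 3 probe sets most correlated with each member. Other listed genes named in the text (AT3G45260, IDD16, LAS, SCL21, PHV and the tissue markers) were added afterwards. Alternatives were offsets of 1 and 64, quantile normalization, a common median, leaving out the lowest 30% of probe sets, no trend, only the 2 groups compared, a replicate block, and leaving out each array.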

Additional observations from a re-analysis of the deposited data

Results flagged for a closer look

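The signal of AT1G14580 differed between DEX times by the limma test between them, while no time passed against 0 hr (adjusted p = 0.268, 0.203, 0.769 and 0.29 at 3, 6, 12 and 24 hr). Between 6 and 3 hr the log2 fold change was -0.86 (adjusted p = 0.0215), and between 24 and 3 hr it was -0.91 (adjusted p = 0.0153). Both 3 hr arrays were above all other arrays in this gene, and the calls rested on the arrays named with them above. DEX, time of day, handling and age cannot be told apart.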

How the results depend on the processing

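Most values kept their direction and side of the threshold. The filter on the lowest 30% of probe sets removed JKD and AT5G60470, which have no value there. Where a replicate was left out, the lone array of its group was taken to vary like the other groups.

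Without an intensity trend, the F test of AT1G14580 gave adjusted p = 0.122, and its differences of 6 and 24 hr from 3 hr gave 0.0661 and 0.0547; that of 24 hr gave 0.0993 with only the 2 groups fitted. The numbers of probe sets called without a trend were 937, 1216, 129 and 58 at 3, 6, 12 and 24 hr and 1298 by the F test. With the lowest 30% left out they were 556 at 12 hr and 391 at 24 hr, and with only the 2 groups 1022 at 3 hr and 49 at 24 hr. With an offset of 64 AT5G60470 passed at 3 hr (0.42) and by the F test (0.0446), which made 1 IDD and 1 SHR pathway gene called at 3 hr. Called GRAS genes numbered 1 at 6 hr after quantile normalization, without a trend or with 2 groups, 0 at 12 hr and at 24 hr without a trend or with 2 groups, and 1 at 3 hr with the lowest 30% left out. The cause was not tested.

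The replicate number did not pair the arrays, since the correlation of replicate differences between groups ran from -0.04 to 0.09. With it as a replicate block the F test of AT1G14580 gave 0.0495, 0 GRAS genes were called at 24 hr, and the counts of probe sets were 1706, 1934, 318 and 157 at the 4 times and 2657 by the F test.

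Without 1 array, the counts of probe sets ran from 866 to 2035 at 3 hr, 989 to 2297 at 6 hr, 102 to 414 at 12 hr, 70 to 192 at 24 hr and 1940 to 3244 by the F test. GRAS counts ran from 1 to 2 at 6 hr and 0 to 1 at 12 and 24 hr, and the adjusted p of the F test of AT1G14580 from 0.00898 to 0.172. Values that were not called and changed sign were those of JKD, from -0.92 to 0.22 at 3 hr, -0.42 to 0.73 at 6 hr, -0.09 to 1.05 at 12 hr, -1.07 to 0.08 at 24 hr and -0.63 to 0.35 for 24 against 3 hr; of SCL23 (AT5G41920), from -0.09 to 0.03 at 12 hr, -0.03 to 0.09 at 24 hr and -0.27 to 0.03 for 24 against 3 hr; of AT5G60470, from -0.42 to 0.22 at 12 hr; and of AT1G14580, from -0.37 to 0.26 for 24 against 6 hr.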

Other observations

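In JKD the array numbered replicate 2 was above replicate 1 in 5 of 5 groups. Of all tested probe sets, 6.31% had the same replicate number higher in all 5 groups. With the replicate number as a block, the F test of JKD gave a limma adjusted p of 0.162, against 0.416 without it. For AT5G60470 replicate 2 was the higher array in 1 of 5 groups, for SCL23 in 2 and for AT1G14580 in 3.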
